A study of Mus musculus with 6 samples.

Results

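The genes described here are 41 genes that help proteins fold or that report on folding stress. They comprise 16 chaperones and foldases of the endoplasmic reticulum (ER), 4 regulators of the ER stress response, 2 subunits of the translocon, 9 cytosolic heat shock proteins and partners, 7 subunits of the cytosolic chaperonin CCT and 3 mitochondrial chaperones. They were taken by symbol, as the only gene named for a probe set in the array's annotation, and each gene is represented by its probe set with the highest mean over the arrays. Of the 41, 39 had such a probe set, out of 8251 named genes on the array, and 36 were analysed, out of 5915. Sdf2l1 and Hsp90ab1 had none, and Hyou1, Calr and Hspb1 did not lie above the floor on 2 arrays. The floor is the 40th percentile of all values, 6.60 on the log2 scale, and values below it were set to it. Probe sets above it on at least 2 arrays were analysed, 7731 in all, and 34 of the 36 analysed members lay above it on all 6 arrays.

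RNA of whole uterine horns was measured on 6 Affymetrix arrays. The mice were ovariectomized wildtype 129/SvImJ females aged 10 to 16 weeks, taken 14 days after surgery. One group received nothing and is called 0 h. The other groups got progesterone under the skin, 0.2 mg per mouse in a volume of 0.1 mL of sesame oil, and were killed 6, 12, 15, 18 or 24 h later. Each array carried RNA pooled from 8 horns of 4 mice, so there was 1 array per group and no replicate, and the number of arrays limits the precision of every value. All groups lacked ovaries, and every difference from 0 h shares the same single 0 h array. The 0 h group was not injected and oil alone was not analysed here. In a difference from 0 h, progesterone, oil and the injection itself therefore cannot be told apart.

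An ovariectomized uterus responds to progesterone through the receptor Pgr, in stroma, epithelium and muscle. Proteins bound for the cell surface or for secretion enter the ER through the translocon, where chaperones such as Hspa5 (BiP) hold them and disulphide isomerases such as Pdia6 join their cysteines. When unfolded protein builds up, sensors in the ER membrane raise the transcription of chaperone genes through Atf6, Xbp1 and Atf4, a programme called the unfolded protein response. Cytosolic heat shock proteins are induced by Hsf1 instead. CCT folds actin and tubulin, and the Hspd1 and Hspe1 chaperonin folds proteins inside mitochondria.

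The 0 h array stood apart from the others. Over the 6808 probe sets above the floor on all arrays, its Pearson correlation with the progesterone arrays was 0.934 to 0.950. Between progesterone arrays it was 0.955 to 0.990. The lower values were those of the 6 h array with the later ones, 0.955 to 0.977, against 0.978 to 0.990 among the 12 to 24 h arrays. The medians of the arrays were 7.12 to 7.22, and the 3′ to 5′ difference of the actin control was 0.19 to 0.33 on the log2 scale. The uterine epithelial markers summed to 7820 linear units at 0 h and to 4191 to 5117 after progesterone, with all 7 analysed. The 4 analysed stromal markers with Vim, which was below the floor, summed to 11013 at 0 h and 9739 to 11874 afterwards, and the 5 smooth muscle markers to 12456 and 11711 to 17012. The 4 markers of B and plasma cells, cells rich in ER, summed to 1419 at 0 h and 862 to 1066 afterwards, with Cd79b at the lower limit on all arrays. The 5 leukocyte markers, with Ptprc below the floor, summed to 1538 at 0 h and 1162 to 1353 afterwards. The 4 adipocyte markers, with Fabp4 and Cidec below it, summed to 1310 and 667 to 946, and the 4 endothelial markers, with Pecam1 below it, to 1095 and 969 to 1148. The part of these differences in the results below was not tested, and in whole tissue fewer cells of a type and less RNA per cell cannot be told apart.

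Most members lay above their 0 h level, most of all at 12 h. At 6, 12, 15, 18 and 24 h, 12, 21, 21, 7 and 6 of the 36 were at least 1.5-fold higher than at 0 h (0.58 on the log2 scale). Of all probe sets, 4.52%, 6.77%, 8.05%, 4.44% and 4.78% were. The counts past 2-fold were 6, 10, 6, 0 and 0, against 1.41%, 1.83%, 2.05%, 1.14% and 1.06% of all probe sets. In the other direction 1, 1, 1, 2 and 1 members were at least 1.5-fold lower, against 5.82%, 5.98%, 5.71%, 6.83% and 4.95%. The member lower at each time was Ddit3, joined by Herpud1 at 18 h. These counts have no test, since each time has 1 array. The members were chosen with earlier results of these data known, so their shares beside all probe sets are no independent result. On all 5 progesterone arrays 23 of the 36 members (63.9%) lay above 0 h, against 20.4% of the 7672 probe sets with 6 values.

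**Figure D1:**
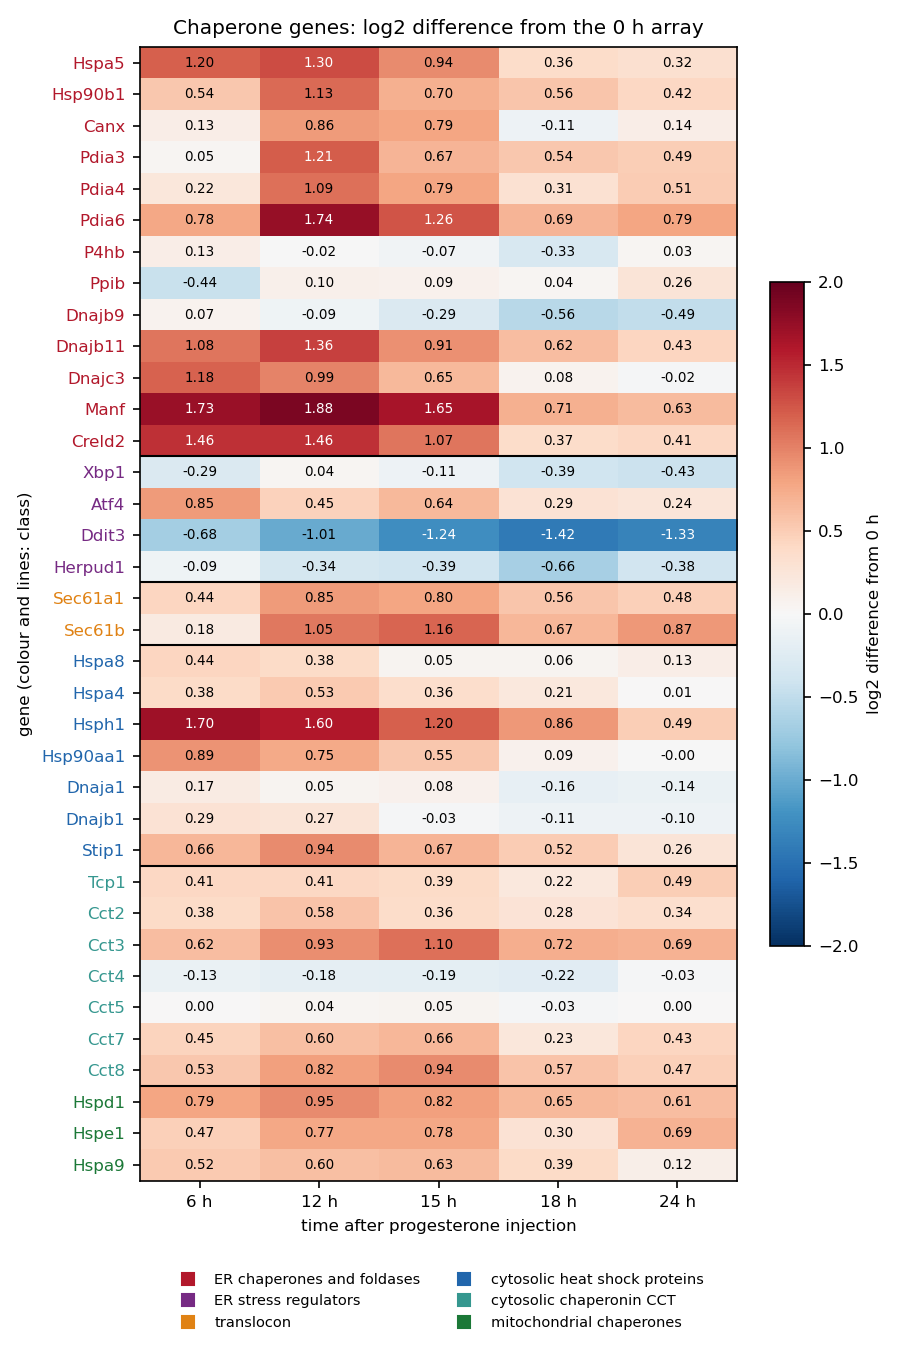
Log2 difference of each analysed member from the 0 h array (rows, grouped by class) at each time after progesterone (columns), 1 array per time, with the value printed in each cell. Red marks values above 0 h and blue below; 9 of the 13 ER chaperones and foldases are highest at 12 h, where Manf stood at 1.88 and Pdia6 at 1.74, and Ddit3 is blue throughout.

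The classes differed in size and in timing. The median difference of the 13 analysed ER chaperones and foldases was 0.54, 1.13, 0.79, 0.36 and 0.41 at 6, 12, 15, 18 and 24 h. Without Dnajb11, whose 0 h value was below the floor, the first of these was 0.38 and the second 1.11. The 7 cytosolic heat shock proteins had medians of 0.44, 0.53, 0.36, 0.09 and 0.01 at the same times. Without Stip1, whose 0 h value was below the floor, these were 0.41, 0.46, 0.22, 0.07 and 0.00. The 7 CCT subunits had medians of 0.41, 0.58, 0.39, 0.23 and 0.43. The 3 mitochondrial chaperones had medians of 0.52, 0.77, 0.78, 0.39 and 0.61. The last of these was 0.22 with the mean over all analysed probe sets of each gene. The 2 translocon subunits had medians of 0.31, 0.95, 0.98, 0.61 and 0.67. The ER stress regulators alone had medians below 0, from -0.15 at 12 h to -0.52 at 18 h. Over all analysed probe sets the medians were -0.05, 0.03, 0.03, -0.04 and 0.00.

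**Figure D2:**
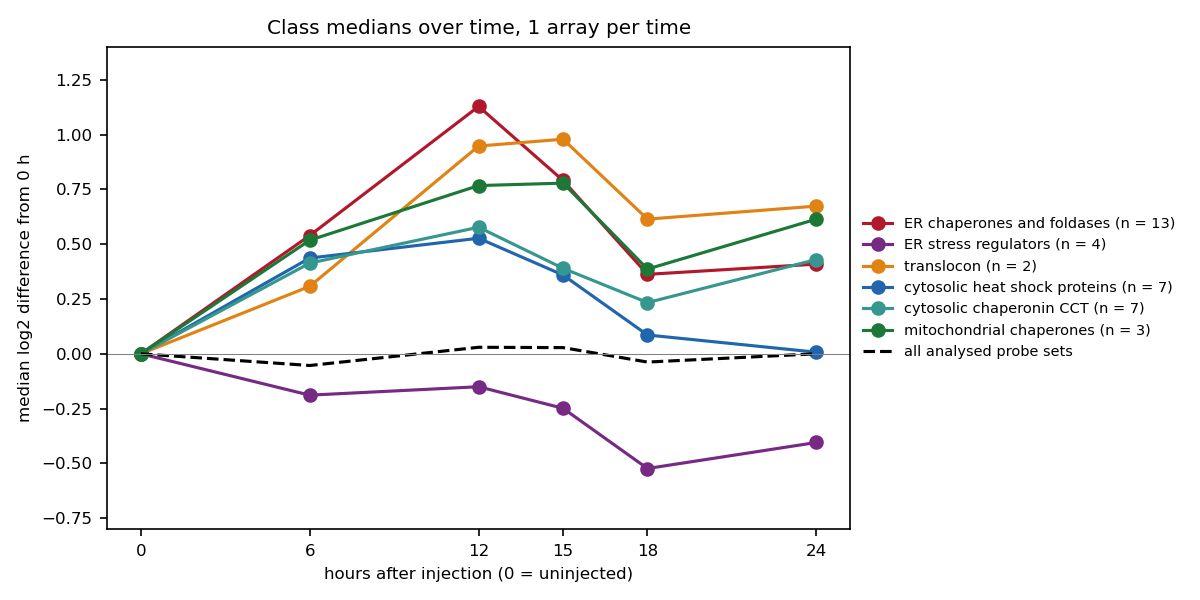
Median log2 difference from the 0 h array for each class (coloured lines, with the number of analysed genes) and for all analysed probe sets (dashed line) against hours after injection, 1 array per time. The ER line peaks at 12 h (1.13), the mitochondrial line ends at 0.61 (0.22 with the mean over probe sets), the CCT line at 0.43, and the cytosolic heat shock line ends at 0.01.

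The hour of the highest progesterone array also differed by class. Of the 13 ER chaperones and foldases, 9 were highest at 12 h and 3 at 6 h. Of the 7 cytosolic heat shock proteins, 5 were highest at 6 h and 2 at 12 h. Of the 7 CCT subunits, 4 were highest at 15 h, as were 2 of the 3 mitochondrial chaperones. Of all probe sets 21.4% were highest at 6 h, 18.7% at 12 h and 27.0% at 15 h. No member was highest at 18 h, where 10.3% of all probe sets were. The timing differences between classes have no test.

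The tests came from 2 limma fits across all probe sets, with Benjamini-Hochberg adjustment and calls at an adjusted p under 0.05. Members and lists were chosen with earlier results of these data known. Their shares beside all probe sets, here and below, are therefore no independent result. The first set the 5 progesterone arrays against the lone 0 h array, whose spread is assumed to be like theirs. In it 1 member rose and 0 fell, against 0.893% of all probe sets that rose and 1.8% that fell. At an unadjusted p under 0.05, 16 members were higher (44.4%, against 8.09% of all probe sets) and 1 was lower (2.78%, against 10.9%). The fitted difference was above 0 for 30 of 36 (83.3%, against 50% of all probe sets). The second fit took hours as a number over the 5 progesterone arrays alone, so it does not rest on 0 h. In it 0 members rose and 3 fell between 6 and 24 h, against 1.02% and 0.88% of all probe sets. At an unadjusted p under 0.05, 16 members had a slope below 0 (44.4%, against 9.87%) and 1 a slope above 0 (2.78%, against 11.6%), and 28 of 36 slopes were below 0 (77.8%, against 46.5%). In either direction, 19% of all probe sets had such a p against 0 h and 21.4% over time.

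**Figure D3:**
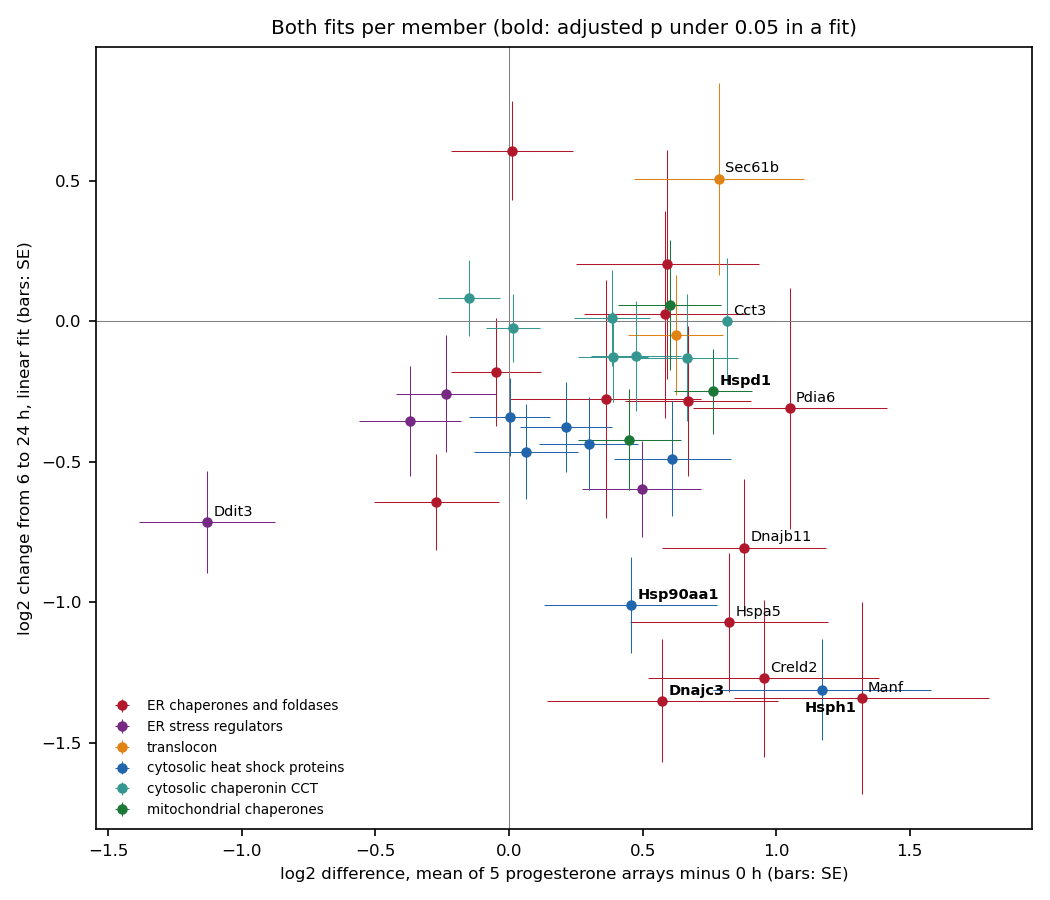
Fitted log2 difference of the 5 progesterone arrays from 0 h (horizontal) against the fitted log2 change from 6 to 24 h within the progesterone arrays (vertical) for each analysed member, with standard errors as bars and classes as colours; names in bold passed an adjusted p of 0.05 in a fit. Manf (1.32 and -1.34) and Hsph1 (1.17 and -1.31) lie at the lower right, Ddit3 (-1.13 and -0.71) at the lower left, and Hspd1 (0.76 and -0.25) is the member called against 0 h.

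The ER stress element is the sequence through which Atf6 and the factor NF-Y act on ER chaperone genes in textbook accounts, so promoters of the members were searched for it. It was written as CCAAT followed by CCACG after a gap of 9 bases, on both strands, in windows from 250 bases before to 50 after each annotated start. RefSeq promoters of build GRCm38.p6 were at hand for 33 of the 41 members, not for Manf, Hyou1, Sec61a1, Hspa8, Hsp90aa1, Hsp90ab1, Cct4 and Hspa9. The element was found in 7 of the 14 ER chaperones and foldases with a promoter (Calr, Canx, Creld2, Dnajc3, Hsp90b1, Hspa5 and Pdia6) and in 37 of all 27025 genes (0.137%). It was in no window of the other classes. Its first block, CCAAT, was in all 14 ER windows and 41.1% of all genes, and CCACG in 13 of 14 and 35.5%. A match describes the letters and does not show that a factor binds. The element was searched for because it is known from ER chaperone genes, so its share among them is no independent result. The stretches below run 5′ to 3′ along the gene, with the element and its gap in capitals, for the 6 analysed genes that hold it, whose values follow.
Hspa5 (chr2:34772013-34772055, + strand): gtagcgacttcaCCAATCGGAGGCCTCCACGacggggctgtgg
Creld2 (chr15:88819508-88819550, + strand): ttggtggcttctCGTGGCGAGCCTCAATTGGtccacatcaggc
Dnajc3 (chr14:118937815-118937857, + strand): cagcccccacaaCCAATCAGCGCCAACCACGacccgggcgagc
Pdia6 (chr12:17266479-17266521, + strand): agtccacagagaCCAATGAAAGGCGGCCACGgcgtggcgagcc
Canx (chr11:50325788-50325830, - strand): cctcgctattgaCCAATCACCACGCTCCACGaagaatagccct
Hsp90b1 (chr10:86705521-86705668, - strand): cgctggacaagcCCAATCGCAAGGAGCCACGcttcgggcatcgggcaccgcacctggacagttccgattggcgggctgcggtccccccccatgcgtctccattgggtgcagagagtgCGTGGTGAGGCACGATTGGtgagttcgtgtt
In Creld2 and in the copy nearer the start in Hsp90b1 the element reads in the reverse direction, and Hsp90b1 holds it at 2 places.

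Hspa5, the Hsp70 chaperone of the ER lumen that also holds the stress sensors inactive, stood at a log2 level of 9.96 at 0 h and at 11.15, 11.26, 10.90, 10.32 and 10.28 at 6, 12, 15, 18 and 24 h. The 6, 12 and 15 h arrays were high, and the 18 and 24 h arrays lay between them and 0 h. Its fitted difference from 0 h was 0.82 ± 0.37 (SE, 5 arrays against 1, adjusted p = 0.279). Its fitted change from 6 to 24 h was -1.07 ± 0.25 (adjusted p = 0.0674).

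Dnajc3 (P58IPK), an ER co-chaperone of Hspa5, was the ER gene that fell over time. It stood at 7.69 at 0 h, then 8.86, 8.67, 8.33, 7.76 and 7.66, so the last array was back at the 0 h level. It fell by 1.35 ± 0.22 between 6 and 24 h (limma, adjusted p = 0.0344). Without the 6, 12, 15, 18 or 24 h array the adjusted p was 0.333, 0.125, 0.0783, 0.104 or 0.113, so the call rests on all 5. Other probe sets of the gene followed the same course, at 0.90 and 1.06 above 0 h at 6 h and -0.18 and -0.03 at 24 h. Dnajb11, another such co-chaperone, was below the floor at 0 h (6.53), so its differences are at least 1.08, 1.36, 0.91, 0.62 and 0.43.

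Manf, a secreted and ER-retained protein of the stress response (chr9:106888753-106891938), showed the largest differences of any member at 6, 12 and 15 h. It stood at 8.16 at 0 h and at 9.88, 10.04, 9.80, 8.86 and 8.79 afterwards. The 3 earlier arrays were 1.65 to 1.88 above 0 h and the 2 later ones 0.63 to 0.71. Neither fit called it: the difference from 0 h was 1.32 ± 0.48 (adjusted p = 0.188) and the change over time -1.34 ± 0.34 (adjusted p = 0.081). Creld2, a stress-induced ER protein, had the same shape, from 7.48 at 0 h to 8.94, 8.94, 8.55, 7.85 and 7.89. Its change over time was -1.27 ± 0.28 (adjusted p = 0.0642).

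Pdia6, Pdia3 and Pdia4, which are disulphide isomerases, the lectin chaperone Canx and Hsp90b1 were highest at 12 h, with smaller values at 6 h. Pdia6 stood at 8.84 at 0 h and at 9.62, 10.59, 10.10, 9.53 and 9.63 afterwards, and its other probe sets gave 1.93 and 1.71 at 12 h beside its own 1.74. Pdia3, which works with Calr and Canx on glycoproteins, was 0.05 above 0 h at 6 h and 1.21 above it at 12 h. Pdia4 showed 0.22 and 1.09, and Canx 0.13 and 0.86, with -0.11 at 18 h. A second probe set of Canx gave 0.36 at 12 h. Hsp90b1 (Grp94), the Hsp90 of the ER, stood at 10.84 at 0 h and at 11.38, 11.97, 11.55, 11.40 and 11.26 afterwards. None of these genes passed either test; the lowest adjusted p was 0.17, for Pdia6 against 0 h.

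Not all ER genes were higher. P4hb, the founding disulphide isomerase, lay within -0.33 to 0.13 of its 0 h level of 10.79. Its other probe set was not above the floor and was not analysed. Ppib (cyclophilin B), a prolyl isomerase, stood at -0.44 at 6 h and 0.26 at 24 h, the opposite course to Hspa5, with a change over time of 0.61 ± 0.18 (adjusted p = 0.104). Dnajb9, a co-chaperone that keeps the sensor Ern1 inactive, was at 0.07, -0.09, -0.29, -0.56 and -0.49. A dimmer probe set of Dnajb9 gave 0.37, 0.20, 0.04, 0.00 and 0.00, the last 2 at the floor. Calr was listed at or near the lower limit of the values, with its value missing at 12 h, although its promoter window holds the element. Hyou1 was also at or near that limit.

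**Figure D4:**
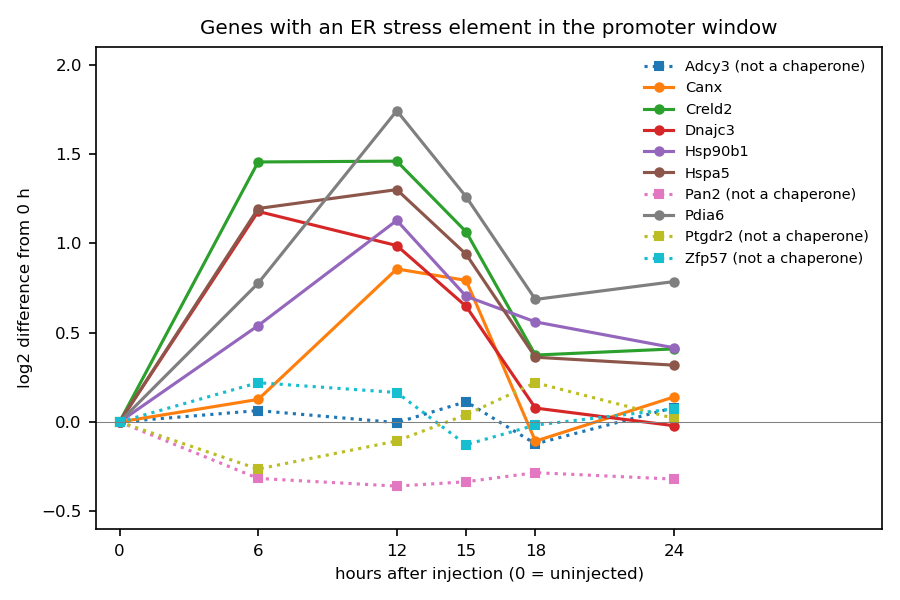
Log2 difference from the 0 h array against hours after injection for the 10 analysed genes whose promoter window holds the ER stress element, 1 array per time: 6 ER chaperones (solid lines, circles) and 4 other genes (dotted lines, squares). The chaperones stand at 0.86 to 1.74 at 12 h and the other genes at -0.36 to 0.16.

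Of the 37 genes that hold it, 10 were analysed, 6 of them members. The other 4 were Adcy3, an adenylyl cyclase, Pan2, a deadenylase subunit, Ptgdr2, a prostaglandin receptor, and Zfp57, a zinc finger protein of imprinted regions. Pan2 was below 0 h on all 5 progesterone arrays, with differences of -0.32, -0.36, -0.33, -0.28 and -0.32, and the other 3 lay on both sides of 0, from -0.26 to 0.22. The median differences of the 4 were -0.10, -0.06, -0.04, -0.07 and 0.05 at the 5 times. They are few, and the members among the 10 had been picked as ER chaperones.

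Of the 4 regulators of the ER stress response, Ddit3 and Herpud1 lay below 0 h on all 5 progesterone arrays and Atf4 above it, and all 4 had slopes below 0 over time. Ddit3 (CHOP; chr10:127290793-127296291), a transcription factor of the late, pro-death branch of the response, stood at 8.25 at 0 h and at 7.57, 7.24, 7.01, 6.83 and 6.92 afterwards. All 5 progesterone arrays were lower than 0 h, by more at 15 to 24 h than at 6 h. The difference from 0 h was -1.13 ± 0.26 (adjusted p = 0.0625), and without the 6 h array it passed, at -1.25. Over time the change was -0.71 ± 0.18 (adjusted p = 0.0807). Herpud1, a component of ER-associated degradation, stood at 9.93 at 0 h and at 9.84, 9.58, 9.54, 9.27 and 9.55, also lower on all 5. Its promoter holds a related element, ATTGG followed by CCACG after 1 base, found in 12 of all 27025 genes (0.0444%) and among the members also in Dnajb11, after the start. The stretch of Herpud1 is shown because its level differed in direction from that of Dnajb11.
Herpud1 (chr8:94386365-94386399, + strand): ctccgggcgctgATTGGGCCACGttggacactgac

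Atf4, the transcription factor whose translation rises when eIF2 is phosphorylated, stood at 9.46 at 0 h and at 10.31, 9.91, 10.10, 9.75 and 9.70 afterwards, above 0 h on all 5. Its fitted difference was 0.50 ± 0.22 (adjusted p = 0.278), and its slope over time was below 0 (-0.60 ± 0.17, adjusted p = 0.103). Xbp1, whose mRNA is spliced by Ern1, lay from -0.43 to 0.04 of its 0 h level of 10.21; the probe set does not tell spliced from unspliced mRNA here. Of the other sensors and effectors of the response, 23 symbols were listed, among them an older name of Selenos, and 12 genes were tested. None rose or fell against 0 h in limma, where 3 had an unadjusted p under 0.05 (25%, against 19% of all probe sets). Over time 3 had a slope below 0 and 0 a slope above 0 at that p (25% below, against 9.87%). Of these, 1 fell at the adjusted threshold. This was Cebpb, whose protein pairs with that of Ddit3. Cebpb stood at 8.53 at 0 h and at 8.90, 8.05, 7.70, 7.56 and 7.39, and fell by 1.5 ± 0.24 (adjusted p = 0.0353). Without the 6, 12, 15 or 18 h array its adjusted p was 0.333, 0.125, 0.0738 or 0.118, and it passed without the 24 h array. The lowest of the list by mean difference was Nupr1, a stress cofactor, from 8.23 to 7.20, 7.42, 7.35, 6.84 and 6.89 (-1.09 ± 0.23 against 0 h, adjusted p = 0.0538). The highest was Asns, asparagine synthetase and a target of Atf4, with 0.54, 0.61, 0.58, 0.33 and 0.37.

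The 2 translocon subunits were higher on every progesterone array. Sec61a1, the channel itself, stood at 9.87 at 0 h and at 10.31, 10.71, 10.66, 10.43 and 10.35 afterwards, and a second probe set gave 0.17, 0.66, 0.66, 0.28 and 0.19. Sec61b stood at 9.49 at 0 h and at 9.67, 10.54, 10.65, 10.16 and 10.36. The fitted differences were 0.62 ± 0.18 (adjusted p = 0.107) and 0.79 ± 0.32 (adjusted p = 0.235), and neither changed over time by the test. Without the 6 h array Sec61b passed, at 0.94. Of 22 tested genes for ER entry, signal peptide removal and glycan transfer, 0 were called in either limma fit; 6 had an unadjusted p under 0.05 against 0 h, all higher (27.3%, against 8.09% of all probe sets), and 3 over time (13.6%, against 21.4%). Ssr2, a translocon-associated protein, led them with 0.34, 0.85, 0.77, 0.97 and 0.88, and Sec62 was lowest with -0.13 to -0.03. Their median difference at 12 h was 0.39.

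Among 23 other tested ER foldases and glycan-folding genes, 1 rose against 0 h and 0 were called over time by limma. At an unadjusted p under 0.05, 6 were higher against 0 h and 0 lower (26.1% higher, against 8.09% of all probe sets). Over time 5 had a slope above 0 and 0 a slope below 0 at that p (21.7% above, against 11.6%). The called gene was Fkbp11, a prolyl isomerase of secretory cells. It was below the floor at 0 h (6.55) and stood at 7.48, 8.21, 8.29, 8.10 and 7.88 afterwards, so its differences of 0.88, 1.61, 1.69, 1.5 and 1.28 are at least that large. The fit gave 1.39 ± 0.28 (adjusted p = 0.0429), which did not pass without the 12, 15, 18 or 24 h array (adjusted p = 0.138, 0.11, 0.121 and 0.0876). Unlike Hspa5 it stayed high at 18 and 24 h, with a change over time of 0.33 (adjusted p = 0.612); the difference between the courses of these genes was not tested. Sdf2, an ER protein that binds unfolded proteins, was the lowest with -0.56 to -0.05. In ER-associated degradation, 0 of 10 tested genes were called in either limma fit. At an unadjusted p under 0.05, 1 was lower against 0 h (10%, against 10.9% of all probe sets), and 0 had such a p over time. Vcp, the ATPase that pulls proteins out of the ER, was highest with 0.10 to 0.54, and the mannosidase Man1b1 lowest with -0.49 to -0.25. The median of that list was 0.05 at 12 h.

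**Figure D5:**
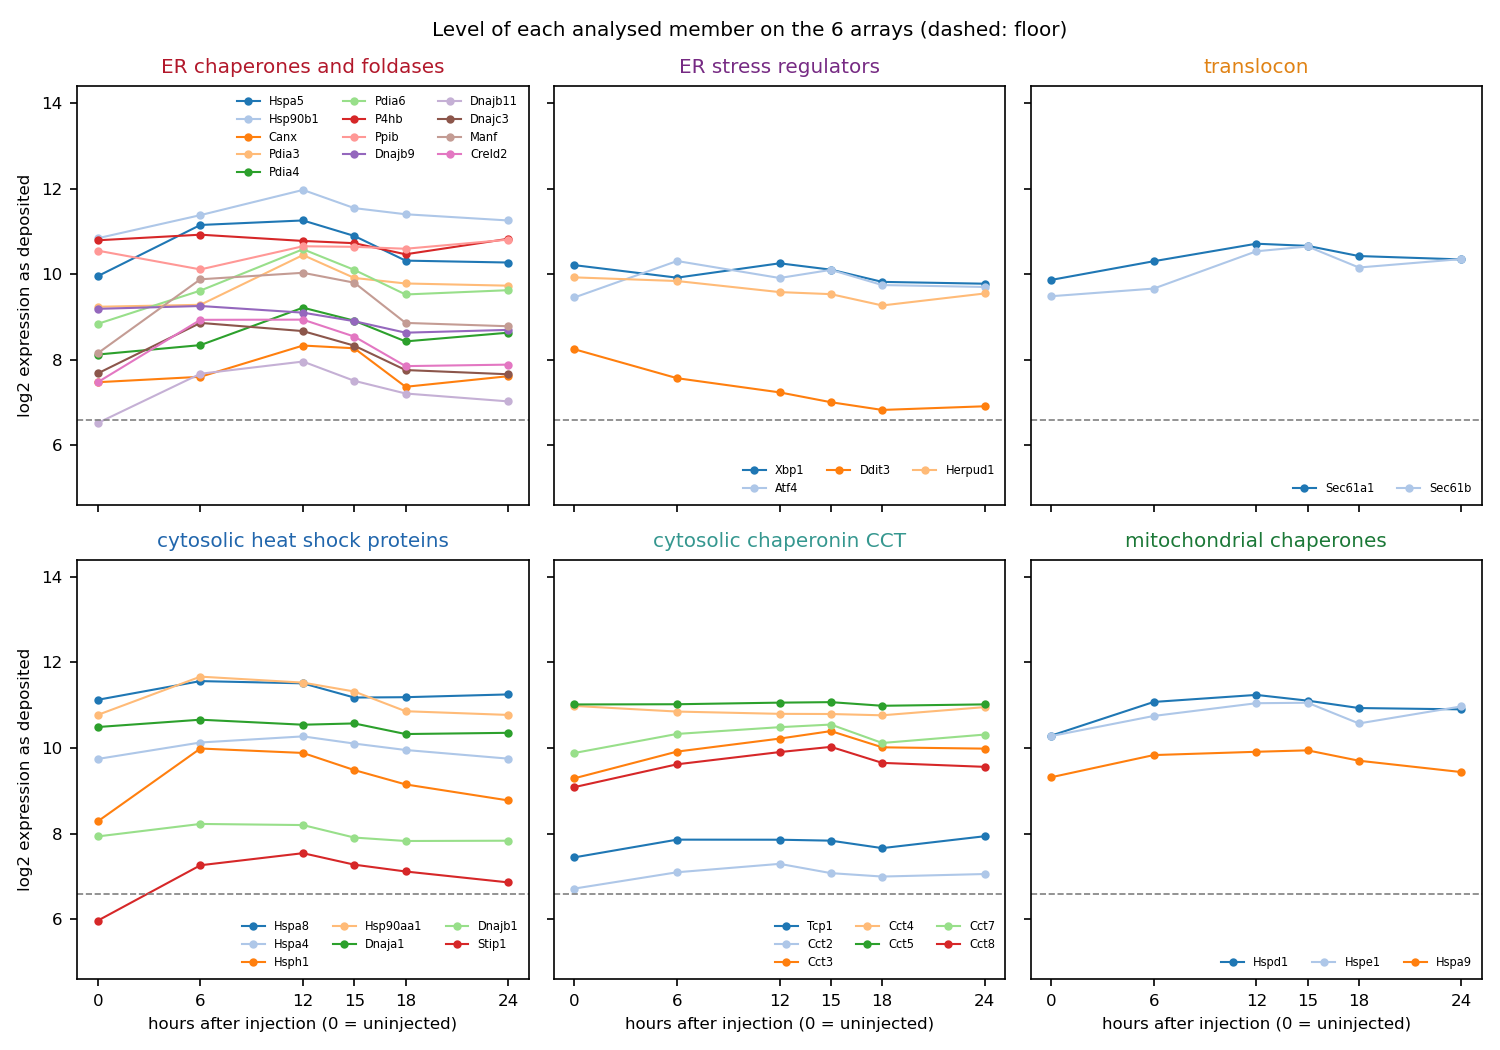
Deposited log2 level of each analysed member on the 6 arrays against hours after injection (0 is uninjected), by class, 1 array per time; the dashed line is the floor at 6.60. Most ER chaperones peak at 12 h, Hsph1 and Hsp90aa1 decline from 6 h, and Ddit3 nears the floor. Cct3 and Cct8 rise from 6 to 15 h and are lower again at 24 h, while Cct5 stays near its 0 h level.

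The cytosolic heat shock proteins were mostly highest at 6 h. Hsph1 (Hsp110; chr5:149616843-149636498), a nucleotide exchange factor of Hsp70, stood at 8.29 at 0 h and at 9.99, 9.88, 9.48, 9.15 and 8.77 afterwards. All progesterone arrays were above 0 h, each lower than the one before. It fell by 1.31 ± 0.18 between 6 and 24 h (limma, adjusted p = 0.0265), while its difference from 0 h of 1.17 ± 0.41 did not pass (adjusted p = 0.172). Without the 6, 12, 15, 18 or 24 h array the adjusted p over time was 0.301, 0.0975, 0.0702, 0.104 or 0.115, and with the 0 h array included the slope turned to 0.07, since 0 h was the lowest array.

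Hsp90aa1, the inducible cytosolic Hsp90 that holds steroid receptors ready for their hormone, stood at 10.77 at 0 h and at 11.67, 11.53, 11.32, 10.86 and 10.77. The last array equalled 0 h to 2 decimals. It fell by 1.01 ± 0.17 over time (limma, adjusted p = 0.0369), with 0.333, 0.127, 0.0788, 0.104 and 0.125 without the 6, 12, 15, 18 and 24 h array. Its other probe set was near the lower limit. All 7 analysed heat shock proteins had slopes below 0, from -0.34 for Dnaja1 to -1.31, in the probe sets used. Each had an unadjusted p under 0.05 in limma (100%, against 9.87% of all probe sets), and 2 passed adjustment. For Hspa4 this depends on the probe set, since another one was higher at 24 h (0.36) than at 6 h (0.12).

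The remaining analysed cytosolic members were not called in either fit. Hspa8, the constitutive Hsp70, stood at 11.13 at 0 h and at 11.56, 11.51, 11.18, 11.19 and 11.25, so the 6 and 12 h arrays were the high ones. Hspa4, another exchange factor, was 0.53 above 0 h at 12 h and 0.01 at 24 h. Its other 2 analysed probe sets stood at 0.12 and 0.59 at 6 h and still at 0.36 and 0.43 at 24 h. Stip1 (Hop), which links Hsp70 to Hsp90, was below the floor at 0 h (5.97), so its differences of 0.66, 0.94, 0.67, 0.52 and 0.26 are lower bounds. Dnajb1, an Hsp40 co-chaperone, lay from -0.11 to 0.29 and Dnaja1 from -0.16 to 0.17. Hspb1, the small heat shock protein Hsp27, was listed at the lower limit on all arrays. A probe set at that limit does not show that the gene was silent: those of Vim and Ptprc lay below the floor too.

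Of 34 other cytosolic chaperones and co-chaperones tested, 1 rose against 0 h and 1 fell over time by limma. At an unadjusted p under 0.05, 8 were higher against 0 h and 1 lower (23.5% and 2.94%, against 8.09% and 10.9% of all probe sets). Over time 3 had a slope above 0 and 8 below it at that p (8.82% and 23.5%, against 11.6% and 9.87%). Hspa14, a ribosome-associated Hsp70, rose by 0.75 ± 0.14 (adjusted p = 0.0342), from 6.74 to 7.48, 7.47, 7.56, 7.58 and 7.32; without the 12, 15 or 18 h array its adjusted p was 0.107, 0.0982 or 0.0874, and it passed without the 6 or the 24 h array. Hspa1b, the inducible Hsp70, stood at 9.97 at 0 h and at 10.69, 10.26, 10.05, 9.90 and 9.75, and fell by 0.95 ± 0.15 over time (adjusted p = 0.0305). Without the 6, 12, 15, 18 or 24 h array its adjusted p was 0.333, 0.125, 0.0702, 0.105 or 0.0695. Its near-identical copy Hspa1a, whose signal cannot be fully told apart from it, stood at 0.84 at 6 h and -0.03 at 12 h (change over time -1.20, adjusted p = 0.0698). Fkbp5, a co-chaperone of steroid receptors, had the highest mean difference of the list, with 1.53, 0.86, 0.62, 0.33 and 0.86, and Hspa2, a testis-enriched Hsp70, the lowest, from 7.80 to 7.46 at 6 h and between 6.47 and 6.61 afterwards.

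The CCT subunits, which form 1 ring-shaped complex, differed among themselves. Cct3 stood at 9.29 at 0 h and at 9.92, 10.22, 10.39, 10.02 and 9.98, with a fitted difference of 0.81 ± 0.19 (adjusted p = 0.0656) that passed without the 6 h array, at 0.86. Another probe set of Cct3 gave 0.68 to 1.17 over the times of 6 to 18 h, and the dimmest 0.20 to 0.42. Cct8 stood at 9.09 at 0 h and at 9.62, 9.90, 10.03, 9.65 and 9.56. Cct7, Cct2 and Tcp1 (Cct1) lay 0.22 to 0.66 above 0 h at all times. Cct5 stood between 10.99 and 11.07 on all 6 arrays, with differences of -0.03 to 0.05, and Cct4 lay below 0 h on all 5, by -0.22 to -0.03. Over time 0 of 7 subunits were called by limma and 0 had an unadjusted p under 0.05. Against 0 h 5 had one, all higher (71.4%, against 8.09% of all probe sets).

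Hspd1 (Hsp60) was the member that rose against 0 h. This subunit of the mitochondrial folding chamber stood at 10.29 at 0 h and at 11.08, 11.24, 11.11, 10.93 and 10.90, all progesterone arrays being higher by 0.61 to 0.95. It rose by 0.76 ± 0.15 (limma, adjusted p = 0.0387). Without the 12, 15, 18 or 24 h array the adjusted p was 0.106, 0.11, 0.0874 or 0.0616, and without the 6 h array 0.042. A second, dimmer probe set of Hspd1 went the other way, with -0.07, 0.01, -0.16, -0.46 and -0.17, and the mean of both gave 0.30 (adjusted p = 0.364). The call thus concerns 1 of the 2 probe sets.

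Hspe1 (Hsp10), the lid of the same chamber, stood at 10.28 at 0 h and at 10.75, 11.05, 11.06, 10.57 and 10.97. Hspa9, the mitochondrial Hsp70 that pulls proteins in, stood at 9.32 at 0 h and at 9.83, 9.91, 9.94, 9.70 and 9.44. Their fitted differences were 0.60 ± 0.19 (adjusted p = 0.141) and 0.45 ± 0.19 (adjusted p = 0.259). Among other mitochondrial chaperones and proteases, 0 of 12 tested genes were called against 0 h and 0 of 13 over time by limma. At an unadjusted p under 0.05, 1 was higher against 0 h (8.33%, against 8.09% of all probe sets), and 0 had such a p over time. Tomm70a, an import receptor, was highest with 0.20 to 0.57 and Clpp, a protease, lowest with -0.13 to 0.13. The median of the list at 12 h was 0.16.

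Hspd1 and Hspe1 lie head to head on chromosome 1, on opposite strands, with start sites 216 bases apart for 1 of the 2 annotated starts of Hspd1; the other lies inside Hspe1, 95 bases beyond its start. The heat shock element, the site read by Hsf1, was searched for as 3 units of GAA and TTC in turn, with 2 bases between units. It occurs in 179 of all 27025 genes (0.662%) and among the members in Hspd1, Hspe1 and Hsph1, in Hsph1 after the start. The same copies lie in the windows of both chaperonin genes, which is why the stretch is shown, on the strand of Hspd1 with 2 overlapping elements in capitals.
Hspd1 and Hspe1 (chr1:55088047-55088088, - strand): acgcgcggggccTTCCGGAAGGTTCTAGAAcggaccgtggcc
At 24 h the difference from 0 h was 0.61 for Hspd1 (-0.17 by its second probe set), 0.69 for Hspe1 and 0.49 for Hsph1. Over all 29 analysed genes with the element, the median difference was -0.05, 0.10, 0.13, 0.03 and 0.11 at 6, 12, 15, 18 and 24 h. For all analysed probe sets it was -0.05, 0.03, 0.03, -0.04 and 0.00.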

How the data were processed

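Per the labels, arrays were run by the protocols of their maker. The authors deposited 1 log2 value per probe set and array, with a shared lower limit of 5.39; the base was read from the values, and their computation and normalization were not stated in the sources used here. The table was used as deposited, without 65 control probe sets. Values below the 40th percentile (6.60) were set to it, so that differences from such values are lower bounds and their p-values can be too small. Probe sets above it on at least 2 of 6 arrays were tested with limma 3.58.1 (R 4.3.3; lmFit and eBayes with an intensity trend): the 5 progesterone arrays against 0 h, and hours as a number over the 5. Both fits were also run on simulated data. There the 0 h array was drawn with the same spread as the others, so the simulation cannot check that assumption. Members and lists were chosen with earlier results of these data known. Named singly were members called in a fit, past 1.5-fold at any time or with the highest mean of their class, and, for other lists, called genes and the highest and lowest by mean difference; the rest are given by range. With 1 pool per group, p-values measure the spread between arrays at different times, not between animals. Alternatives varied the floor, filter, scaling, probe set choice, variance model, form of time and arrays used. Promoter sequences are from RefSeq (GRCm38.p6).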

Additional observations from a re-analysis of the deposited data

How the results depend on the processing

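No paired analysis was possible because each group has 1 array and the labels carry no replicate numbers. The number of members called against 0 h (1) was 2 with arrays centred on their medians or quantile normalized (Cct3 and Hspd1), 2 with the floor at the 20th percentile or no floor (Hspd1 and Stip1), 0 with the mean over probe sets, and 0 with no filter (17 and 9 at an unadjusted p under 0.05); leaving out 1 progesterone array gave 0 to 4. The number called over time (3) was 0 with the 0 h array included, 0 for 6 and 12 h against 18 and 24 h, and 0 with no filter (4, 14 and 12 at an unadjusted p under 0.05), 5 with centring, quantile normalization or no floor (adding Creld2 and Hspa5), and 0 to 0 without 1 array (11 to 17 at an unadjusted p under 0.05). For the other listed genes against 0 h (2) it was 5 with centring and quantile normalization, 1 with the floor at the 20th percentile, 0 at the 60th, 1 with no filter and 0 to 9 without 1 array; over time (2) it was 0 with 0 h included, 0 for early against late, 1 with the floor at the 60th percentile, 0 with no filter, 4 with no floor and 0 to 2 without 1 array. Over all probe sets the number called moved with the settings too. Over time it was 147 in the main fit, 24 with 0 h included, 0 for early against late and 0 with no filter. It was 166 with centring, 247 with quantile normalization, 285 with no floor and 0 to 36 without 1 array. Against 0 h it was largest without the 6 h array, as for the members. A changed count of members thus need not be particular to them. The change of Hsph1 over time turned to 0.0736 with 0 h included (adjusted p = 0.965), 1 of 1414 recomputed single-gene values to reverse a called direction. Of 180 recomputed class medians 162 stayed within 0.1. The ER median at 6 h was 0.41 under the 20th percentile floor. Under the 60th, which tests fewer genes, the ER medians were 0.38, 0.69, 0.23 and 0.29 at 6, 15, 18 and 24 h, those of the stress regulators -0.0852, 0.0432 (the reverse of -0.15), -0.11 and -0.39 at 6, 12, 15 and 18 h, the cytosolic median 0.22 at 15 h, and CCT 0.30, 0.38 and 0.12 at 6, 12 and 18 h. With the mean over probe sets the cytosolic medians were 0.51 at 15 h and 0.13 at 24 h, and the mitochondrial ones 0.60, 0.63 and 0.22 at 12, 15 and 24 h. Except where the construction is named, the cause was not tested.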

Other observations

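A further element of the ER stress response, the letters TGACGTGG read by Xbp1 and Atf6, was in no member's promoter window and in 193 of 27025 genes (0.714%), of which 62 were analysed. Their median difference from 0 h was 0.07, 0.16, 0.19, 0.04 and 0.07 at 6, 12, 15, 18 and 24 h. The following genes among them were chosen after their values were seen. Kdelr3, a receptor that returns escaped chaperones to the ER, stood at 7.25 at 0 h and at 7.22, 8.60, 8.92, 8.75 and 8.87 afterwards, so it was at its 0 h level at 6 h and high from 12 to 24 h. Lrrc59, a ribosome-binding protein of the ER membrane, stood at 8.89 at 0 h and at 9.88, 10.17, 10.23, 9.83 and 9.69. Xpnpep1, an aminopeptidase, stood at 8.03 at 0 h and at 9.97, 9.93, 9.97, 9.30 and 9.48. Bysl stood at 7.12 at 0 h and at 8.70, 8.62, 8.62, 8.27 and 7.64. Its difference at 12 h, 1.49, was larger than those of Kdelr3 (1.36) and Lrrc59 (1.27). Hk2, which was not above the floor at 0 h, was at least 1.22 higher at 12 h. Twist1, a transcription factor of mesenchyme, was the lowest of the 62 at 12 h, at -0.37.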
